A study of Homo sapiens with 7 samples.

Results

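The genes described here encode molecular chaperones: the HSP70 and HSP110, HSP90, HSP60/HSP10 and small heat shock proteins, the DNAJ (J-domain) proteins, and the CCT/TRiC chaperonin. Members were taken by name from the gene tables, as chromosome entries whose symbol begins with HSPA, HSPB, HSPD, HSPE, HSPH or HSP90, with DNAJA, DNAJB or DNAJC, or with CCT, together with TCP1, the first CCT subunit. Read-through names with a hyphen were left out. The rule gave 82 of 20187 chromosome entries and used no measured value. They were 15 HSP70 and HSP110 genes, 3 HSP90 genes, HSPD1 and HSPE1, 8 small HSP genes, 4 DNAJA, 12 DNAJB and 28 DNAJC genes, and 10 CCT genes.

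Chaperones bind unfolded or partly folded proteins and release them for folding. HSP70 proteins cycle between substrate binding and release with ATP, J-domain proteins deliver substrates and start ATP hydrolysis, and HSP110 proteins exchange the nucleotide. HSP90 acts later on kinases and receptors, and the CCT ring encloses actin, tubulin and other substrates. In the cytosol the heat shock factor HSF1 binds heat shock elements in the promoters of many of these genes after proteotoxic stress, while the endoplasmic reticulum (ER) set answers to the unfolded protein response. Pluripotent stem cells are known for high levels of constitutive chaperones.

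RNA-seq was performed on SEES-3, a human embryonic stem cell (hESC) line grown without feeder cells, that carried a doxycycline (Dox)-inducible transgene. In the JMJD3c line the transgene encoded the catalytic domain of JMJD3 (KDM6B), a demethylase of histone H3 lysine 27, and cells were collected before Dox (Day 0) and each day from Day 1 to Day 4 under 1 µg/ml Dox. In the mutant line a point mutation removed the catalytic activity, and cells were collected without Dox and after 4 days at the same dose. All 7 conditions thus shared the cell line, the piggyBac Tet-inducible vector with a nuclear localization signal and HA tag, and puromycin selection of stable clones, and the mutant line was a separate line. Each condition had 1 library. No difference between conditions therefore had a replicate check, and no P-value was computed.

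Expression was deposited as FPKM (fragments per kilobase of transcript, scaled to the mapped reads of the library) with the Cufflinks 95% interval, which covers the estimate within a library and no difference between cultures. A comparison was called in either of 2 ways: by a ratio above 2 (or below 0.5) with over 4 FPKM in the higher library, or by intervals of the 2 libraries that did not overlap, written below as intervals apart. The background for both was the 9696 chromosome entries with a mean above 4 FPKM over the 7 libraries. Of the 82 chaperone genes, 59 passed that mean, 23 did not, and 5 of those 23 were listed at 0 in every library. Log2 ratios were taken after adding 1 FPKM, which understates the change of low genes.

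Depth, estimated from the size of single-read steps in low FPKM values, was 1770000 to 3660000 reads per library and lowest at Day 0. KDM6B, which includes the transgene, stood at 3.45 FPKM before Dox and between 158 and 282 FPKM under it, and in the mutant line at 2.40 and 454 FPKM. The 5 pluripotency markers (POU5F1, SOX2, NANOG, LIN28A and DNMT3B) were all detected in every library and summed to 1974 FPKM at Day 0, 1411 FPKM at Day 4, and 1823 and 1598 FPKM in the mutant line. The 8 definitive endoderm and mesoderm markers summed to 5.49 FPKM at Day 0 (5 of 8 at 0) and to 309.8 FPKM at Day 4 (none at 0), against 10.9 and 7.83 FPKM in the mutant line. The 5 neuroectoderm markers summed to 7.22 FPKM at Day 0, to 33.0, 30.2, 29.5 and 23.1 FPKM at Days 1 to 4, and to 5.11 and 7.14 FPKM in the mutant line. Most of the neuroectoderm sum was ZIC1, at 4.99 FPKM at Day 0 and 15.8 to 26.2 FPKM at Days 1 to 4. Over the 7 libraries the 5 trophectoderm markers summed to 2.99 to 6.45 FPKM, and the 5 fibroblast markers to 92.8 to 166.2 FPKM with COL3A1 and DCN at or near 0. Most of the fibroblast sum was the single gene THY1, at 76.1 to 129.9 FPKM. The part of this change in cell type in the chaperone values of Days 1 to 4 was not tested, and in bulk RNA fewer cells of a type and less RNA per cell cannot be told apart.

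The promoters of 6 genes are shown first, as examples of the sequences through which the 2 stress pathways are known to act: 4 chaperone genes with a 3-unit heat shock element, and the 2 of 14 ER members that held an ER stress element. Sequences were taken from RefSeq promoters of GRCh38.p14 and cover the bases before the start site, 5′ to 3′ on the gene's strand. Capitals mark a 3-unit heat shock element (3 alternating GAA and TTC units, each 2 bases apart) in HSPA8, HSP90AA1, HSP90AB1 and HSPA6, or an ER stress element in HSPA5 and HSP90B1. HSPA6 is included as a strictly stress-inducible HSP70 gene that was nearly silent here.
HSPA8 (chr11:123062137-123062386, minus strand): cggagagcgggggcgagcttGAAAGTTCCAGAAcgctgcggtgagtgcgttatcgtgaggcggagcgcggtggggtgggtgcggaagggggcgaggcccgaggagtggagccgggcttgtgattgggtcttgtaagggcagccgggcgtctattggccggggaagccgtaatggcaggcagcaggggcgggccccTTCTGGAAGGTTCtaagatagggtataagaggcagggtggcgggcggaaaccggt
HSP90AA1 (chr14:102087045-102087244, minus strand): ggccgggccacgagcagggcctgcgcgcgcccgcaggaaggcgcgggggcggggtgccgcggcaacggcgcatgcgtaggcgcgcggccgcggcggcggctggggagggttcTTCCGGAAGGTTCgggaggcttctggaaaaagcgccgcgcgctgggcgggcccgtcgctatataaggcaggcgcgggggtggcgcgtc
HSP90AB1 (chr6:44247743-44247942, plus strand): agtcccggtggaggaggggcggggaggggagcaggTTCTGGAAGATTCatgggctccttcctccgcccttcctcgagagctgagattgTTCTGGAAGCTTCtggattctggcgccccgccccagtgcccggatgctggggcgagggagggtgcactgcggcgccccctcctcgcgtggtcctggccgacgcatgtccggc
HSPA6 (chr1:161524340-161524539, plus strand): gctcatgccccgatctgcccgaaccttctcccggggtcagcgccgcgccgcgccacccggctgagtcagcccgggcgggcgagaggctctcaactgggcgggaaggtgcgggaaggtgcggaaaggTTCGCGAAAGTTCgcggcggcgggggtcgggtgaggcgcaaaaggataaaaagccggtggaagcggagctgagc
HSPA5 (chr9:125241344-125241543, minus strand): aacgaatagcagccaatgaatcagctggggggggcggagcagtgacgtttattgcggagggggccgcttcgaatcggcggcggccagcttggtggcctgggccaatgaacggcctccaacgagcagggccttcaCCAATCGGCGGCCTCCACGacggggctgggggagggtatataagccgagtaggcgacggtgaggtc
HSP90B1 (chr12:103930210-103930409, plus strand): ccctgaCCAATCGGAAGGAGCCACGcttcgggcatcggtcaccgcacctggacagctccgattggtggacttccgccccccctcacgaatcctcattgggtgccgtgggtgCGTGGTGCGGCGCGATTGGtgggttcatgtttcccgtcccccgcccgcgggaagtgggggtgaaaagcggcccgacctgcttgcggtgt

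HSPA8 held the element at 55 to 43 bases and again at 230 to 218 bases before its start site, HSP90AB1 at 112 to 100 and 165 to 153 bases, HSP90AA1 at 88 to 76 bases and HSPA6 at 74 to 62 bases. The ER stress element lay 66 to 48 bases before the start of HSPA5, and at 89 to 71 and 194 to 176 bases in HSP90B1. Of the 82 genes, 73 matched at least 1 RefSeq promoter, 94 promoters in all, each of 250 bases before and 50 bases after the start. A 3-unit heat shock element, searched on both strands, was held by 7 of the 94 (7.45%), those of DNAJA1, DNAJB6, HSP90AA1, HSP90AB1, HSPA6, HSPA8 and HSPD1, against 172 of 35116 promoters in the whole table (0.490%). The element of DNAJA1 lay after its start site. The looser pair GAANNTTC or TTCNNGAA, which every 3-unit element contains, was held by 27 of 94 (28.7%) against 13.5% of all. The ER stress element was held by 2 of 94 (2.13%), HSPA5 and HSP90B1, against 0.0769% of all, and a TATA box (TATAAA on either strand) by 12.8% against 11.5%. Among the cytosolic genes named below, HSPH1 held neither heat shock motif, and HSPA1A, HSPA1B and DNAJB1 held the pair alone. These matches are a description of letters, and no match says only that the letters are not in this window.

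Several chaperone mRNAs were abundant. Of the 59 genes above 4 FPKM, 22 had a mean of at least 100 FPKM, out of 741 such chromosome entries. HSP90AB1, the constitutive cytosolic HSP90, ranked 40th among all chromosome entries at 1257 to 1585 FPKM. HSPA8, the constitutive cytosolic HSP70, ranked 48th at 818 to 1663 FPKM, and HSP90AA1, the inducible HSP90, ranked 87th at 655 to 1036 FPKM. HSPD1, the mitochondrial HSP60, lay at 515 to 741 FPKM and HSP90B1, the ER HSP90, at 332 to 435 FPKM. The 8 CCT ring subunits formed a narrow band below these. The classical stress-inducible HSP70 genes were far lower: HSPA1A lay at 29.3 to 52.2 FPKM and HSPA1B at 29.0 to 57.9 FPKM, so that HSPA8 exceeded their sum by 13.8 to 22.7 times. HSPA1A and HSPA1B are near-identical and their split is uncertain. HSPA6 was listed at 0 in 6 libraries and stood at 0.255 FPKM in the mutant line with Dox, under the 0.435 FPKM that 3 reads would give there.

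The comparison of Day 4 with Day 0 asked what had changed after 4 days of catalytically active JMJD3c. By then the ER chaperones HSPA5 and HSP90B1 and the cytosolic pair HSPA8 and DNAJA1 were higher with intervals apart, and 7 genes that included 3 CCT subunits were lower. The classical stress-inducible genes HSPA1A and HSPA1B had overlapping intervals. By the 2-fold rule, 3 of the 59 genes were higher (5.08%, against 4.31% of the background), DNAJB9, DNAJC1 and HSPB8, and 1 was lower (1.69%, against 5.72%), HSPA2. By intervals apart, 4 of 59 were higher (6.78%, against 4.70% of the background) and 7 were lower (11.9%, against 6.94%). Intervals narrow with level: among the 741 entries of at least 100 FPKM the shares were 11.7% higher and 24.3% lower, and among the 22 chaperones of that level 18.2% each way. The median log2 ratio over all 82 genes was 0.00, as it was over all chromosome entries, and over the 59 it was 0.03 against -0.06.

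**Figure D1:**
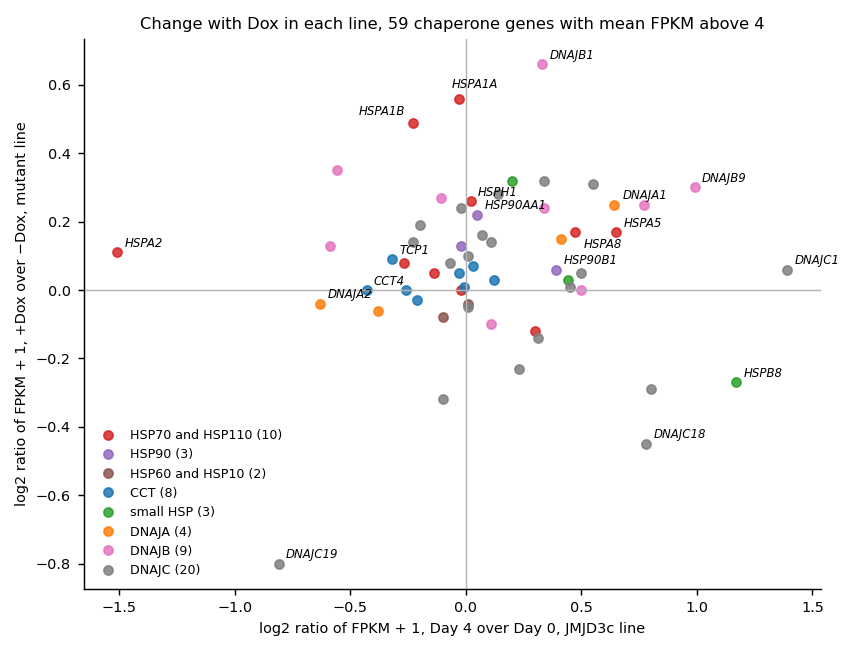
Log2 ratio of FPKM + 1 at Day 4 over Day 0 in the JMJD3c line (horizontal) and with Dox over without in the mutant line (vertical) for the 59 chaperone genes with a mean above 4 FPKM. Each point is 1 gene from 1 library per condition, colored by family with the number of genes in parentheses. HSPA1A, HSPA1B and DNAJB1 lie highest on the vertical axis at 0.49 to 0.66, HSPA2 lies farthest left at -1.51, and DNAJC1 farthest right at 1.39.

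HSPA5 (BiP, the ER HSP70) was 157, 161, 163, 204 and 247 FPKM at Days 0 to 4, and 216 and 244 FPKM in the mutant line without and with Dox. The first 3 values were close together, and the intervals of Days 3 and 4 lay above that of Day 0. HSPA5 was 1 of 3 genes, with HSPA13 and DNAJC5, that were higher at each of the 4 daily steps, as were 3.04% of the background. HSP90B1 (GRP94) was 332, 360, 355, 401 and 435 FPKM over the days, and 413 and 431 FPKM in the mutant line. Its Day 4 value was 1.31 times that of Day 0, its interval was apart from Day 0 at Days 3 and 4, and the untreated mutant line lay between Days 3 and 4.

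The other ER chaperones had no intervals apart between Days 0 and 4. Of the 14 members placed in the ER lumen or membrane, 13 had a log2 ratio above 0 at Day 4 against Day 0 (92.9%, against 44.7% of the background), with a median of 0.34. Against the untreated mutant line 8 of the 14 lay above 0 (57.1%, against 47.5% of the background), with a median of 0.09. Between the untreated lines, 11 of the 14 were higher in the mutant line than at Day 0 (78.6%, against 46.8%), with the same median of 0.34. DNAJB9 (ERdj4, a BiP partner that binds misfolded proteins) was 2.46, 4.48, 4.32, 5.78 and 5.88 FPKM over the days, a ratio of 2.39 at Day 4, and its interval was apart from Day 0 at Day 3 alone. The mutant line held 4.34 and 5.58 FPKM. DNAJC1 (ERdj1) was 3.84 FPKM at Day 0, 11.6 FPKM at Day 4, and 10.1 and 10.6 FPKM in the mutant line, with intervals that overlapped throughout. For both genes the Day 0 library was thus the low one of the 7. DNAJB11 (ERdj3) went from 114.0 to 144.7 FPKM, DNAJC3 (P58IPK) from 8.94 to 11.6 FPKM and DNAJC10 (ERdj5, a disulfide reductase) from 20.7 to 25.8 FPKM, with overlapping intervals. DNAJC10 was 39.6 and 35.8 FPKM in the mutant line, and its Day 4 value lay below the untreated mutant line with intervals apart (log2 ratio -0.60). DNAJB12, a J protein of the ER membrane, was the exception at 12.5 FPKM at Day 0 and 8.17 FPKM at Day 4.

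In the cytosol, HSPA8 was 976, 818, 940, 1026 and 1354 FPKM at Days 0 to 4. It was below Day 0 at Day 1 and above it at Day 4, both with intervals apart. DNAJA1, a J-domain partner of HSPA8, was 124, 117, 135, 145 and 194 FPKM, and its interval was apart only at Day 4. In both genes most of the difference lay between Days 3 and 4. Between Days 3 and 4 the low listed genes DNAJB4 (4.07 and 5.31 FPKM) and HSPA4L (1.79 and 3.27 FPKM) were also higher, with overlapping intervals. Outside the list, DNAJC7 was 108.2 FPKM at Day 0, 81.4 FPKM at Day 3 and 148.5 FPKM at Day 4, with the intervals of Days 3 and 4 apart. Several other cytosolic members of the HSF1-inducible list had no such step. HSPA1A stayed at 29.3 to 30.6 FPKM over the 5 days, HSPH1 (HSP110) at 70.4 to 74.8 FPKM and HSP90AA1 at 655 to 677 FPKM, with overlapping intervals. HSP90AB1 was 1322 FPKM at Day 0 and 1303 FPKM at Day 4. DNAJB1 (HSP40), the partner of HSPA1A in the heat shock response, was 27.1 FPKM at Day 0, 41.3 FPKM at Day 2 and 34.5 FPKM at Day 4, with overlapping intervals. Over the 16 listed HSF1-inducible members, 9 had a log2 ratio above 0 and 6 below at Day 4, the median was 0.02, and 2 were higher and 1 lower with intervals apart, against 4.7% and 6.94% of the background. Scaled by median ratios, which moved the background median from -0.06 to 0.00, 11 lay above 0 and 4 below, and the log2 ratios of HSPA1A (0.02) and HSP90AB1 (0.04) turned from below to above 0.

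The HSP70 gene HSPA2, known for its part in spermatogenesis, was 13.2, 11.9, 9.05, 7.58 and 3.99 FPKM from Day 0 to Day 4. It was lower at every daily step, to 0.303 of Day 0, and the Day 4 interval (2.18 to 5.81 FPKM) lay below that of Day 0 (9.38 to 17.1 FPKM). In the mutant line it was 7.35 and 8.0 FPKM, between the values of Days 2 and 4. Against the untreated mutant line the Day 4 ratio was 0.543, not past the 2-fold rule, and the intervals overlapped. Day 0 was the highest library for this gene, so the size of the fall depended on the reference. The small HSP gene HSPB8, which works with BAG3 in selective autophagy, was 3.46, 3.66, 3.35, 4.33 and 9.06 FPKM, and 3.5 and 2.72 FPKM in the mutant line. Only the Day 4 value stood out, at 2.62 times Day 0 and 2.59 times the untreated mutant line; its interval was apart from the latter and overlapped that of the shallower Day 0 library. DNAJB5 was 11.9 FPKM at Day 0, 21.1 FPKM at Day 4 and 9.60 FPKM in the untreated mutant line, and DNAJC30, a mitochondrial J protein, was 3.45, 5.93 and 2.63 FPKM.

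The lower members held J proteins and CCT subunits. DNAJA2, another partner of HSPA8, was 60.8, 44.7, 44.7, 41.6 and 39.0 FPKM over the days, and 62.7 and 61.0 FPKM in the mutant line. DNAJB6, which suppresses aggregation, was 99.3, 81.8, 67.1, 68.8 and 65.8 FPKM, and 101.4 and 111.1 FPKM in the mutant line. In both genes the intervals of the mutant line overlapped Day 0, and Days 2 to 4 were lower with intervals apart. HSPA4, an HSP110 protein, was 106.2 FPKM at Day 0, 87.7 FPKM at Day 4, and 136.4 and 144.0 FPKM in the mutant line. DNAJC19, of the mitochondrial import motor, was 29.0, 11.0, 22.8, 16.4 and 16.1 FPKM over the days, and 25.7 and 14.3 FPKM in the mutant line without and with Dox. Over the days its intervals were apart between Days 0 and 1, and the values followed no steady order. DNAJC15, of the mitochondrial inner membrane, went the other way from 5.53 to 10.4 FPKM by Day 4, and DNAJC18 from 8.31 to 15.0 FPKM, both with overlapping intervals at Day 4. DNAJC15 was 10.8 and 10.2 FPKM at Days 2 and 3, where its intervals were apart from Day 0.

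**Figure D2:**
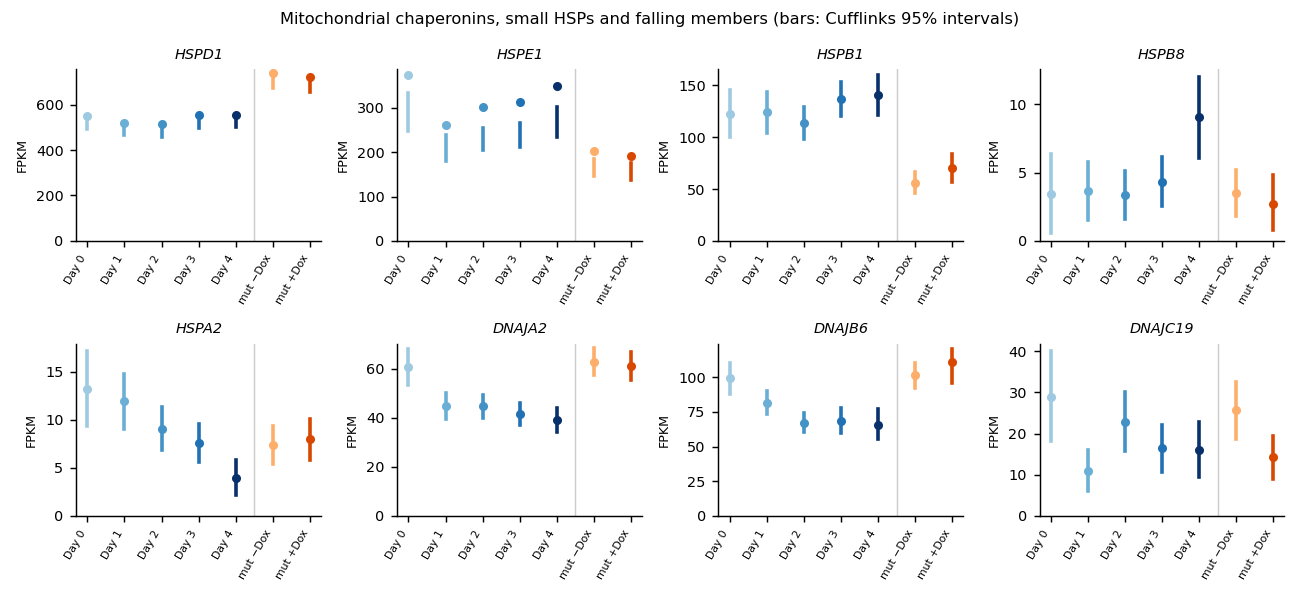
FPKM of the mitochondrial chaperonins HSPD1 and HSPE1, the small HSPs HSPB1 and HSPB8, and 4 genes that were lower at Day 4, in each of the 7 libraries with Cufflinks 95% intervals. HSPA2 descends from 13.2 to 3.99 FPKM over the days; the HSPE1 and mutant HSPB1 values show the difference between the lines; some HSPD1 and HSPE1 points lie above their own interval.

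The CCT ring is built from 8 different subunits that assemble in equal numbers, and its mRNAs were similar in level. In the JMJD3c line the subunits lay between 177 and 302 FPKM, and in the mutant line between 248 and 365 FPKM. Within a library the highest subunit exceeded the lowest by 1.39 to 1.58 times. At Day 0 the order ran from CCT8 (191.7 FPKM) and CCT2 (198.2 FPKM), whose intervals overlapped, to CCT7 (297.2 FPKM) and CCT5 (301.6 FPKM), whose intervals also overlapped. At Day 4 against Day 0, 6 of the 8 had log2 ratios below 0, with a median of -0.12, against -0.06 over the background and -0.13 over entries of at least 100 FPKM. Scaled by median ratios, 4 of the 8 lay below 0, with CCT6A (0.05) and CCT8 (0.03) now above it. CCT4 (245.1 and 181.6 FPKM), TCP1 (264.6 and 211.4 FPKM) and CCT7 (297.2 and 247.9 FPKM) were lower with intervals apart. TCP1 had already reached 210.4 FPKM at Day 1, whereas CCT4 stood at 213.7 FPKM at Day 3. Outside the ring, the testis form CCT6B lay at 0.606 to 2.49 FPKM and CCT8L2 was listed at 0 throughout.

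**Figure D3:**
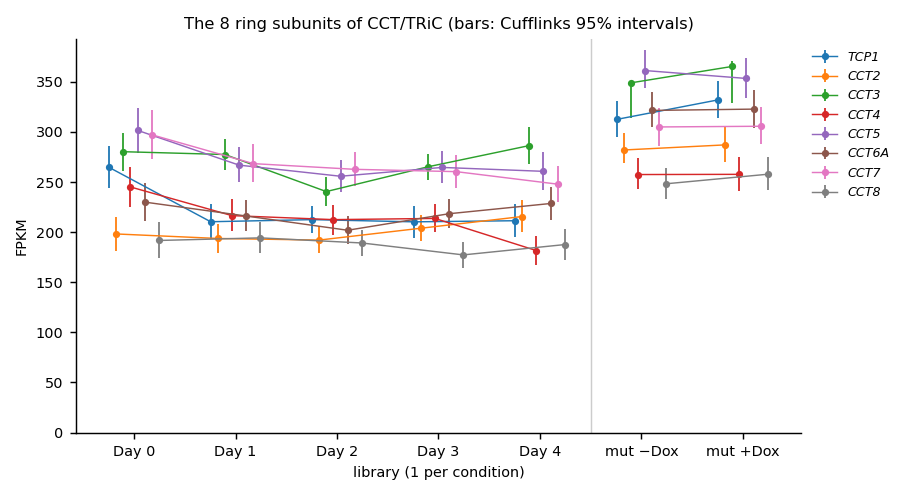
FPKM of the 8 CCT/TRiC ring subunits in each of the 7 libraries, with Cufflinks 95% intervals; points are shifted sideways for legibility and the mutant line stands to the right of the gray line. All 8 subunits are higher in the untreated mutant line than at Day 4, and CCT4 is the lowest subunit at Day 4 at 181.6 FPKM.

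The mutant line addressed what Dox and the inactive protein change on their own. Here 9 chaperones were higher with Dox with intervals apart, by 1.10 to 1.59 times, and none was lower. Of these, 8 were cytosolic members of the HSF1-inducible list (HSPA1A, HSPA1B, HSPA8, HSPH1, HSP90AA1, HSP90AB1, DNAJA1 and DNAJB1), and the other was HSPA5. HSPA8 and HSP90AB1 are mainly constitutive genes that the list also holds. The calls made up 9 of 59 (15.3%), against 1.39% of the background, and the count of lower genes was 0 against 1.62%. Among entries of at least 100 FPKM the shares were 5 of 22 chaperones (22.7%) and 33 of 741 entries (4.45%). By the 2-fold rule there was no call in either direction, against 0.846% higher and 1.10% lower in the background. The median log2 ratio was 0.05 over the 82 genes and 0.08 over the 59, against 0.00 over the background. Over the 16 listed members it was 0.24, with 13 above 0 and 3 below, while 50.8% of the background lay above 0. The list also differed without Dox. In the untreated mutant line over Day 0 its median was 0.28, with 12 above 0 and 3 below, against 46.8% of the background above 0. With intervals apart, 8 of the 16 were higher there and 2 lower, against 8 and 0 with Dox. Whether the shift with Dox exceeded a difference between untreated cultures was not tested, as each condition had 1 library.

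HSPA1A was 35.2 FPKM without and 52.2 FPKM with Dox, with intervals of 30.8 to 39.6 and 46.2 to 58.3 FPKM. HSPA1B was 41.1 and 57.9 FPKM, and the sum of the pair, which does not depend on the split of reads between the copies, was 76.2 and 110.0 FPKM. All 5 libraries of the JMJD3c line lay below both, at 59.1 to 65.6 FPKM for the sum. DNAJB1 was 34.0 and 54.2 FPKM, HSPH1 was 102.9 and 123.1 FPKM, and HSP90AA1 was 887.8 and 1036 FPKM. HSPA8 was 1480 and 1663 FPKM, HSP90AB1 was 1446 and 1585 FPKM, and DNAJA1 was 198.9 and 236.7 FPKM. In each of these genes the library with Dox was the highest of the 7. HSPA5 was 216 and 244 FPKM, within the range of the JMJD3c line. Of the 9 genes, 7 carried at least the heat shock unit pair in a RefSeq promoter, and 4 carried the 3-unit element, which are 4 of the 7 chaperone genes that hold it. Of the other 3, DNAJB6 was 101.4 and 111.1 FPKM with overlapping intervals, HSPD1 was 740.8 and 719.5 FPKM, and HSPA6 was almost unread. Genes with the 3-unit element also differed without Dox: 5 of the 7 were higher in the untreated mutant line than at Day 0 with intervals apart. At Day 4, 5 of the 7 were lower than in the untreated mutant line, and against Day 0 2 were higher and 1 lower. The largest log2 ratios below 0 were those of DNAJC19 (-0.80), DNAJC18 (-0.45) and DNAJC14 (-0.32), all with overlapping intervals.

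**Figure D4:**
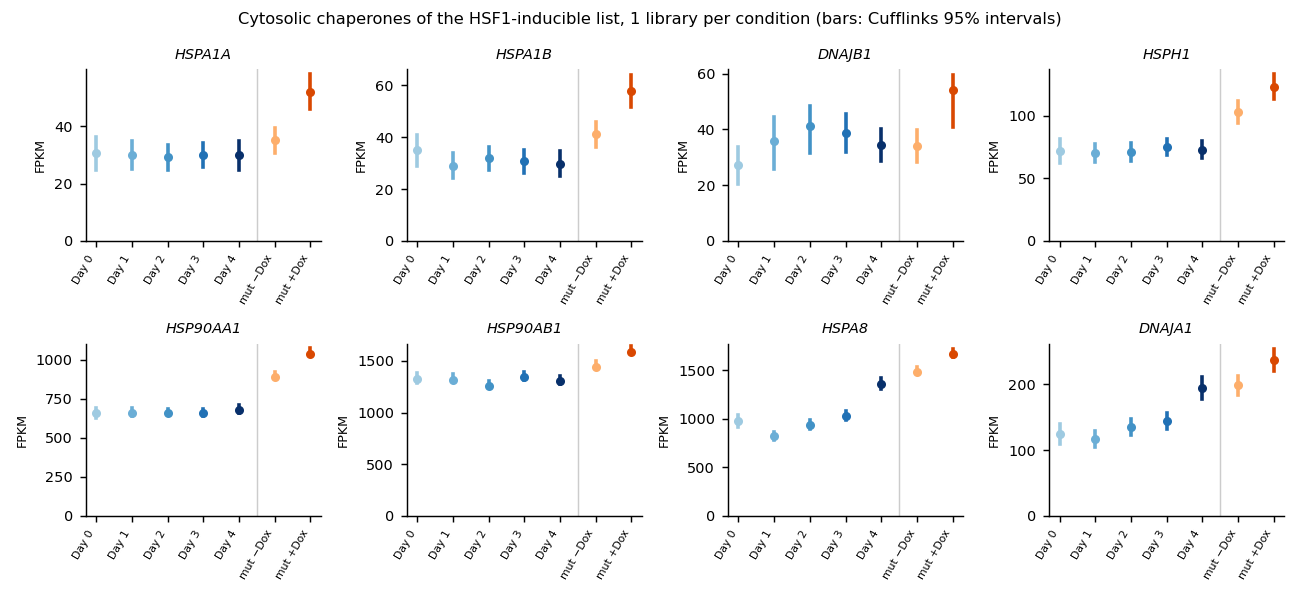
FPKM of the 8 cytosolic chaperones of the HSF1-inducible list that were higher with Dox in the mutant line with intervals apart. All 7 libraries are shown with Cufflinks 95% intervals, and each panel starts at 0. In every panel of these called genes the mutant line with Dox is the highest library, as for HSPA1A at 52.2 FPKM. HSPA1A, HSPH1 and HSP90AA1 are level over Days 0 to 4. Of the list members not shown, CCT2 and TCP1 were also highest there. HSPB1 (140.5 FPKM) and HSPA4L (3.27 FPKM) were highest at Day 4, and DNAJB4 (6.97 FPKM) at Day 1.

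The change with Dox was compared between the lines through the intervals of both libraries of each line, which gave a range for each log2 ratio. For HSPA1A the ratio was -0.03 (range -0.53 to 0.48) in the JMJD3c line and 0.56 (0.22 to 0.90) in the mutant line, and the ranges overlapped. For HSPA1B it was -0.23 (-0.70 to 0.25) and 0.49 (0.17 to 0.81), and for HSP90AA1 0.05 (-0.07 to 0.17) and 0.22 (0.15 to 0.30). For these 3 genes the ranges did not separate the lines. For 6 of the 59 genes the ranges did not overlap (10.2%, against 2.37% of the background), and 5 of them were among the 22 chaperones of at least 100 FPKM (22.7%, against 9.58% of the 741 entries). Ranges apart with ratios on opposite sides of 0 were found for 2 of the 59 (3.39%, against 1.3% of the background). Among the 22 chaperones of at least 100 FPKM it was 1 (4.55%), near the 4.05% of the 741 entries. HSPA5 (0.65 and 0.17), HSP90B1 (0.39 and 0.06) and HSPA8 (0.47 and 0.17) had the larger ratio in the JMJD3c line, and HSPA2 (-1.51 and 0.11), CCT4 (-0.43 and 0.00) and TCP1 (-0.32 and 0.09) had ratios below 0 there. With 1 library per condition the difference between the lines was not tested.

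The untreated libraries of the 2 lines already differed in chaperones. In the mutant line without Dox, 18 of the 59 genes were higher than at Day 0 with intervals apart (30.5%, against 6.85% of the background) and 3 were lower (5.08%, against 6.94%). Of the 22 chaperones of at least 100 FPKM, 16 were higher (72.7%), against 14.8% of the 741 entries. The 18 held 6 CCT subunits, all 3 HSP90 genes, HSPA4, HSPA5, HSPA8, HSPA9, HSPD1, HSPH1, DNAJA1, DNAJC7 and DNAJC10. By the 2-fold rule 1 gene was higher (1.69%, against 2.34%), DNAJC1, and 1 lower (1.69%, against 5.24%), HSPB1. The summed FPKM of all 82 genes was 1.5% to 1.54% of the total at Days 0 to 3 and 1.68% at Day 4, against 2.11% and 2.24% in the mutant line. The sums themselves were 8011 FPKM at Day 0, 8471 FPKM at Day 4, and 9678 and 10390 FPKM in the mutant line. Part of the difference in share lay in the total, which was 495702 to 531482 FPKM in the JMJD3c line and 459646 and 463660 FPKM in the mutant line. The median log2 ratio of the mutant line over Day 0 was 0.07 over the 82 genes and 0.20 over the 59, against -0.04 over the background.

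The 3 lower genes were HSPA2, described above, HSPB1 and HSPE1. HSPB1 (HSP27), the most abundant small HSP, was 113.8 to 140.5 FPKM over the days and 56.2 and 70.4 FPKM in the mutant line. HSPE1, the HSP10 lid of the mitochondrial chaperonin, was 261 to 375 FPKM in the JMJD3c line and 203 and 191 FPKM in the mutant line. Its ring partner HSPD1 moved the other way, at 515 to 555 FPKM and at 741 and 720 FPKM, so that HSPD1 over HSPE1 was 1.46 to 1.99 in the JMJD3c line and 3.66 and 3.77 in the mutant line. In the annotation used for the files the HSPD1 entry (chr2:198351305-198381461 of hg19) spans that of HSPE1 (chr2:198364718-198368181), and the read-through HSPE1-MOB4 lies over both, at up to 41.5 FPKM. The HSPE1 values also lay above their own Cufflinks interval, and 13 of the 574 chaperone values in all lay outside theirs.

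Transcript length, taken from the longest annotated transcript of each gene, moved with this difference between the lines. The form expressed may be shorter, so a gene's length class is uncertain. Background entries of up to 1000 bases had a median log2 ratio of -0.48 in the untreated mutant line over Day 0, those of 1000 to 2000 bases -0.19, those of 2000 to 4000 bases -0.08, and longer ones 0.06. HSPE1 (700 bases; -0.88) and HSPB1 (1455 bases; -1.11) were short, and HSPA8 (2306 bases; 0.60), HSPD1 (4930 bases; 0.43) and HSPH1 (5244 bases; 0.51) longer. The 27 chaperones of 2000 to 4000 bases had a median of 0.22 and the 24 longer ones 0.26, both above the background of their length. The part of length in each gene's value was not tested. With Dox in the mutant line the same 4 length classes had medians of -0.05, -0.02, 0.00 and 0.02.

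Day 4 was also set against the untreated mutant line, a second untreated reference. It shares the Day 4 library with the comparison above, and the untreated library with the mutant comparison. By the 2-fold rule 4 genes were higher, DNAJB5, DNAJC30, HSPB1 and HSPB8, 3 of them among the 59 (5.08%, against 5.26% of the background), and 0 were lower against 3.27%. By intervals apart 8 were higher, 6 of them among the 59 (10.2%, against 8.09%), and 20 were lower (33.9%, against 10.1%). The 8 were DNAJB5, DNAJC5, DNAJC22, DNAJC30, HSPA5, HSPB1, HSPB8 and HSPE1. The 20 held all 8 CCT ring subunits, with a median log2 ratio of -0.44, and HSPA8, HSP90AA1, HSP90AB1, HSPD1, HSPA9 and HSPH1. Among the 22 chaperones of at least 100 FPKM 63.6% were lower, against 22.5% of the 741 entries. The 2 references gave different pictures of single genes. HSPA8 at Day 4 was above Day 0 and below the untreated mutant line, both with intervals apart. HSPA5 was above both, and CCT4, CCT7, DNAJA2, DNAJB6, HSPA4 and TCP1 were below both. The share of background entries on the same side of both references, which share the Day 4 library, was not computed.

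Genes that work with the chaperones were read from lists outside the rule. HSF1, the heat shock factor, was 27.3 to 33.3 FPKM in the JMJD3c line and 28.8 and 33.8 FPKM in the mutant line. BAG3, an HSP70 exchange factor that HSF1 induces, was 6.81 to 9.25 FPKM over the 7 libraries, with overlapping intervals in the mutant line, as for HSF1. HSF2 was 3.81 to 11.2 FPKM and HSF4 and HSF5 lay at most at 0.203 FPKM. HSBP1, a negative regulator of HSF1, was 63.7 FPKM at Day 0 and 85.5 FPKM at Day 4 with intervals apart, and 66.2 and 59.2 FPKM in the mutant line. Of 10 HSP70 exchange factors none had intervals apart at Day 4 against Day 0 or in the mutant line with Dox. Few of the background had either: 4.7% were higher and 6.94% lower at Day 4, and 1.39% and 1.62% with Dox. Of 18 HSP90 co-chaperones 1, FKBP4, was lower at Day 4 with intervals apart (192.4 and 126.6 FPKM; 6.94% of the background was lower), and 1, AHSA1, which activates HSP90, was lower with Dox in the mutant line (137.3 and 108.8 FPKM; 1.62% of the background). Most of the 18 went the other way from AHSA1: 15 lay above 0 with Dox in the mutant line (83.3%, against 50.8% of the background). At Day 4 against Day 0, 5 of the 18 lay above 0 (27.8%, against 44.7%). AHSA2 was 14.1 FPKM at Day 0, 8.70 FPKM at Day 4 and 3.72 FPKM in the untreated mutant line, and so was past the 2-fold rule against the mutant line alone. None of the 14 listed prefoldin genes, tubulin cofactors and other CCT partners had intervals apart in either Dox comparison, against the same low background shares.

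The ER list outside the rule was read in the same way. Of its 22 genes, 18 had a log2 ratio above 0 at Day 4 against Day 0 (81.8%, against 44.7% of the background), with a median of 0.25, and 7 were higher and none lower with intervals apart. Of the background 4.7% were higher and 6.94% lower, and of entries of at least 100 FPKM 11.7% and 24.3%. The 7 were the lectin chaperone CALR (443.2 and 530.8 FPKM), the disulfide isomerases P4HB (228.5 and 329.3 FPKM), PDIA4 (146.5 and 174.3 FPKM) and PDIA6 (206.1 and 244.9 FPKM), the translocon J protein SEC63 (18.9 and 35.9 FPKM), and the stress sensors and factors XBP1 (52.9 and 73.0 FPKM) and ATF6 (2.77 and 4.89 FPKM). P4HB had a Day 4 value above its own interval (252.1 to 308.7 FPKM). Against the untreated mutant line the median of the 22 at Day 4 was 0.21, 16 lay above 0 (72.7%, against 47.5% of the background), and 3 were higher and 1 lower with intervals apart. In that comparison 8.09% of the background were higher and 10.1% lower, and of entries of at least 100 FPKM 28.9% and 22.5%. Of the 7, CALR (log2 ratio 0.32) and PDIA4 (0.22) were also higher than in the untreated mutant line with intervals apart, while P4HB (0.13), PDIA6 (-0.07), SEC63 (0.20), XBP1 (-0.03) and ATF6 (0.29) had overlapping intervals. DDIT3 (CHOP), a stress-induced factor, was 0.560 to 1.85 FPKM at Days 0 to 3, 8.11 FPKM at Day 4, and 2.45 and 2.33 FPKM in the mutant line, past the 2-fold rule against both references with overlapping intervals. In the mutant line with Dox none of the 22 had intervals apart (1.39% of the background were higher and 1.62% lower) and the median was 0.04. The 8 endoderm and mesoderm markers were highest in the same Day 4 library, and their part in the ER values was not tested.

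Mitochondrial chaperones lay on both sides of 0. The 9 mitochondrial chaperones had a median log2 ratio of -0.10 at Day 4 against Day 0, with 4 above 0 and 5 below and no intervals apart. Of the background, 44.7% lay above 0 in that comparison, and 4.7% were higher and 6.94% lower with intervals apart. HSPA9 (mortalin, the mitochondrial HSP70) was 159.2 FPKM at Day 0, 144.7 FPKM at Day 4, and 200.1 and 206.8 FPKM in the mutant line. Of 7 mitochondrial chaperones and proteases outside the rule, 6 had ratios below 0. CLPX, the unfoldase of the matrix protease, was 35.6 FPKM at Day 0 and 12.4 to 16.1 FPKM at Days 1 to 4, past the 2-fold rule at Day 4 with intervals apart, and 21.7 and 23.4 FPKM in the mutant line. TRAP1, the mitochondrial HSP90, was 126.9 FPKM at Day 0 and 79.9 FPKM at Day 4, with intervals apart.

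The remaining members were low. The 23 genes at or below 4 FPKM in mean included HSPA1L, HSPA4L, HSPA12A, HSPA12B, HSPB2, HSPB6, HSPB9, DNAJB13 and DNAJC12. CCT8L2, DNAJB8, DNAJC5B, HSPB3 and HSPB7 were listed at 0 in all 7 libraries, where 3 reads would have given 0.259 to 3.53 FPKM depending on the gene and library. HSPA4L was 1.4 FPKM at Day 0 and 3.27 FPKM at Day 4, and HSPA12B was 1.60 and 0.585 FPKM. DNAJC22 was 0.303 and 1.11 FPKM and was listed at 0 in the untreated mutant line. At this depth such values rest on few reads. The DNAJC22 interval in the untreated mutant line ran from 0 to 0, below that of Day 4 (0.152 to 2.10 FPKM). The upper bound was also 0 in 57 of the 68 chaperone values listed at 0.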

How the data were processed

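Poly(A) RNA of the 7 SEES-3 conditions was sequenced as 150-base single-end reads from directional libraries. Per the labels and the submitters' processing notes, bases were called with CASAVA 1.4, and the authors mapped reads to hg19 with TopHat2 2.0.13 and estimated FPKM and their 95% interval bounds per gene with Cufflinks 2.1.1. No reads or counts were used. Rows were joined between libraries by identifier and locus. Of 22670 rows, 2483 on alternative or patch sequences, all at 0, were left out. The members and gene lists were chosen with earlier results of these data known. Named genes were fixed members, those past the 2-fold rule, the 5 highest, the 5 largest log2 ratios in each direction at Day 4 and the 3 largest in the mutant line, and listed pathway genes past that rule with HSF1 and BAG3; any other gene was named after its values were seen. The calls, with a pseudocount of 1 for log2 ratios, were computed in Python 3.11.15 with pandas 2.3.3 and numpy 2.4.6, and checked on simulated data. Depth and the floor of 3 reads were estimated from steps among low values with GENCODE 44 lengths of the longest transcript less 200 bases. For a shorter expressed form the floor would be higher. Steps of a smaller size also occurred, so depth may be higher. Floors cover counting error only. Alternatives were other FPKM cutoffs, pseudocounts, scaling and filters; the background of at least 100 FPKM and shares of the summed FPKM were added after seeing the data. Protein sequences were not used here.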

Additional observations from a re-analysis of the deposited data

Results flagged for a closer look

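2 chaperone genes were on opposite sides of 0 with Dox in the 2 lines, with ranges from the Cufflinks intervals that did not overlap between the lines. These were 2 of 59 (3.39%), against 1.3% of the background entries. Among chaperones of at least 100 FPKM the share was 1 of 22 (4.55%), near the 4.05% of the 741 entries of that level. HSPA2 had a log2 ratio of -1.51 at Day 4 against Day 0 and of 0.11 with Dox in the mutant line. TCP1 had -0.32 and 0.09. Against the untreated mutant line the Day 4 ratio was 0.543 for HSPA2, with overlapping intervals, and 0.676 for TCP1, with intervals apart. Each line had 1 library per condition, so the difference was not tested.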

How the results depend on the processing

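Each result has 1 library per condition, and Cufflinks intervals hold no spread between cultures, so no call has an error for culture, passage or clone. Of 101 counts, medians and sums recomputed under alternatives, 84 stayed within tolerance (0.07 for a median log2 ratio, 0.1 for a ratio of sums, 1.5 times for a count) and 17 moved. The 216 recomputed log2 ratios of single genes shifted by a median of 0.01 and by at most 0.49 (CCT6B), 0 left the range of the gene's intervals, and 4 changed sign at Day 4 against Day 0 under median-ratio scaling (CCT6A, CCT8, HSP90AB1 and HSPA1A). With a cutoff of 1 FPKM in place of 4, the 2-fold rule called 7 higher and 6 lower at Day 4 against Day 0 (3 and 1 with 4 FPKM), 7 and 2 against the untreated mutant line (4 and 0), and 2 and 2 with Dox in the mutant line (0 and 0). With 10 FPKM it called 1 higher against Day 0 and 2 against the untreated mutant line. With intervals also apart, 0 were higher against Day 0. With members above 4 FPKM in mean alone, the median log2 ratio was -0.13 for Day 4 against the untreated mutant line and 0.20 between the untreated lines. Without its highest member, the Day 4 over Day 0 ratio of summed FPKM was 0.711 for DNAJA and 0.932 for DNAJB, below 1, 1.08 for HSP70 and HSP110, and 1.46 for small HSPs; as a share of the total without KDM6B and the 10 highest entries it was 1.28 for DNAJA and 1.37 for HSP70 and HSP110. No member row was a pseudogene, so that alternative changed nothing. No paired analysis was possible because each condition has 1 library, and none could be left out. Depth limits genes of a few FPKM.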
